A study of Mus musculus with 4 samples.

Results

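Described here are 5 genes of the CCN family, Nov, Ctgf, Cyr61, Wisp1 and Wisp2, taken as the rows that carry these symbols, out of 24850 named entries in the total RNA-seq tables and 24992 in the polyA RNA-seq tables. Each symbol matched 1 row in every table. They were chosen by their family and by measured values of these same libraries, namely their expression levels and changes between libraries, so their values are a description and no test was made on them.

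The CCN family is a small group of secreted matricellular proteins, that is, proteins that sit in the extracellular matrix and signal to cells instead of building the matrix. Its founding members are Cyr61 (also CCN1), Ctgf (CCN2) and Nov (CCN3), and the Wnt-inducible secreted proteins Wisp1 (CCN4) and Wisp2 (CCN5) followed. The proteins share a chain of modules that resemble an IGF-binding protein, a von Willebrand factor type C repeat, a thrombospondin repeat and a C-terminal cystine knot, the last of which Wisp2 lacks. They bind integrins, heparan sulfate and growth factors. Cyr61 and Ctgf are classical immediate early genes, induced within hours by serum, by TGF-beta and by the YAP/TAZ-TEAD transcription factors that respond to cell shape and tension.

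All 4 libraries came from C2C12, an established mouse myoblast line that fuses into myotubes when serum is withdrawn. Total RNA depleted of ribosomal RNA was sequenced from proliferating myoblasts in growth medium with fetal bovine serum (MB, labelled DM -24 hours) and from myotubes kept 72 h in differentiation medium with horse serum (MT, the time as labelled, although a figure legend of the study gives another). PolyA RNA was sequenced from cells transfected with a control siRNA (si-NC) or with an siRNA against the RNA-binding protein hnRNPL (si-hnRNPL), both kept 48 h in differentiation medium. Levels are given as FPKM, fragments scaled to transcript length and to library size. Each condition had 1 library, so no difference here has a replicate check, no p-value is given, and the 95% intervals printed beside FPKM are those of Cufflinks, which cover counting and assignment of fragments within a library and not the spread between cultures. Taken as counting error alone, the widths of these intervals implied between 14592480 and 59960176 fragments per library. Where uncertain assignment widens an interval, the implied number is too low. Cell state matched the labels, since all 5 myotube markers (Myog, Ckm, Acta1, Myh3 and Tnnt3) rose from MB to MT and all 3 markers of proliferation (Mki67, Top2a and Ccnb1) fell. Summed over each list, the myotube markers stood at 13.6 FPKM in MB and 1212 in MT, and the proliferation markers at 329 and 58.6. Markers of endothelial, epithelial, adipose and neuronal cells were each under 1 FPKM in every library, and of the 2 leukocyte markers Cd68 reached 1.13 FPKM in MB.

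In MB the family was led by its immediate early members. Cyr61 stood at 156 FPKM (95% interval 154 to 158), above 98.3% of named entries, and Ctgf at 63.5 FPKM (62.3 to 64.7). Wisp1 followed closely at 60.9 FPKM (60.1 to 61.7), and its interval did not overlap that of Ctgf. Wisp2 was low, at 2.96 FPKM (2.66 to 3.26), and Nov was the lowest at 0.274 FPKM (0.196 to 0.351), a value that rests on about 50.0 fragments. Cyr61, Ctgf and Wisp1 thus made up 55.0%, 22.4% and 21.4% of the 284 FPKM summed over the 5 genes, while Wisp2 made up 1.04% and Nov 0.0963%.

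In MT the order was different. Wisp1 came first with 86.0 FPKM (85.1 to 86.9), followed by Cyr61 with 69.3 (68.0 to 70.6), Wisp2 with 26.7 (25.9 to 27.6), Ctgf with 21.2 (20.5 to 21.8) and Nov with 7.46 (7.06 to 7.85). No neighbours in this order had overlapping intervals. The summed level was 211 FPKM, of which Wisp1 held 40.8%, Cyr61 32.9%, Wisp2 12.7%, Ctgf 10.0% and Nov 3.54%.

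The polyA libraries of transfected cells shared their first 2 genes with MT. In si-NC, Wisp1 stood at 108 FPKM (106 to 109) and Cyr61 at 102 (99.6 to 105). Nov came next at 69.9 FPKM (68.0 to 71.8), ahead of Ctgf at 19.9 (18.9 to 20.9) and Wisp2 at 13.6 (12.6 to 14.6). In si-hnRNPL, Wisp1 with 107 FPKM (105 to 109) and Cyr61 with 103 (99.9 to 106) had overlapping intervals, the sole such pair of neighbours in the 4 libraries. Nov stood at 30.6 FPKM (29.0 to 32.2), Wisp2 at 22.9 (21.3 to 24.6) and Ctgf at 15.4 (14.3 to 16.5), so Wisp2 and Ctgf had changed places. The sixth family member, Wisp3, was outside the set and was listed at 0.0767 FPKM in MB, 0.0640 in MT, 0 in si-NC and 0.0747 in si-hnRNPL.

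**Figure D1:**
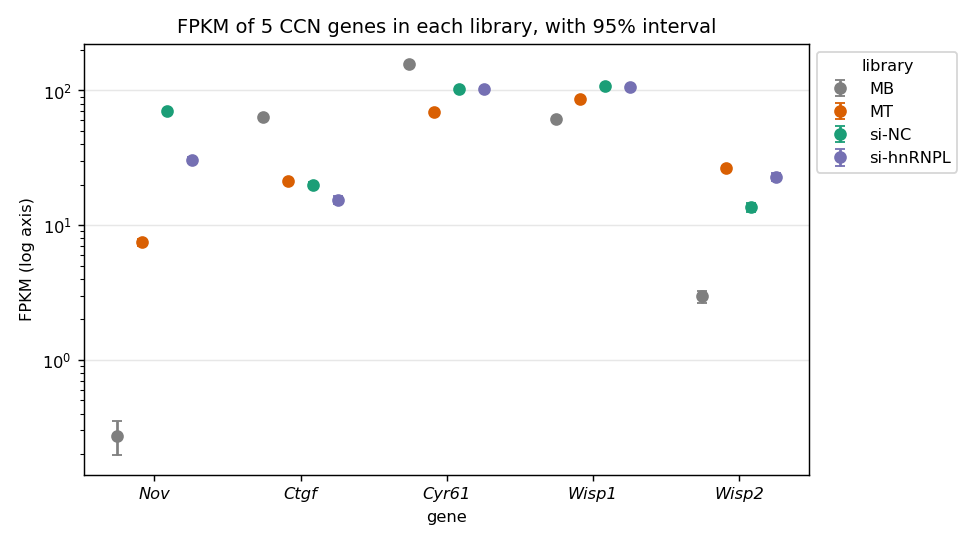
FPKM of the 5 CCN genes in the 4 libraries on a log axis, with a point for each library and bars for the 95% interval of Cufflinks. Nov spans the widest range, from 0.274 FPKM in MB to 69.9 in si-NC, whereas Wisp1 stays between 60.9 and 108.

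**Figure D2:**
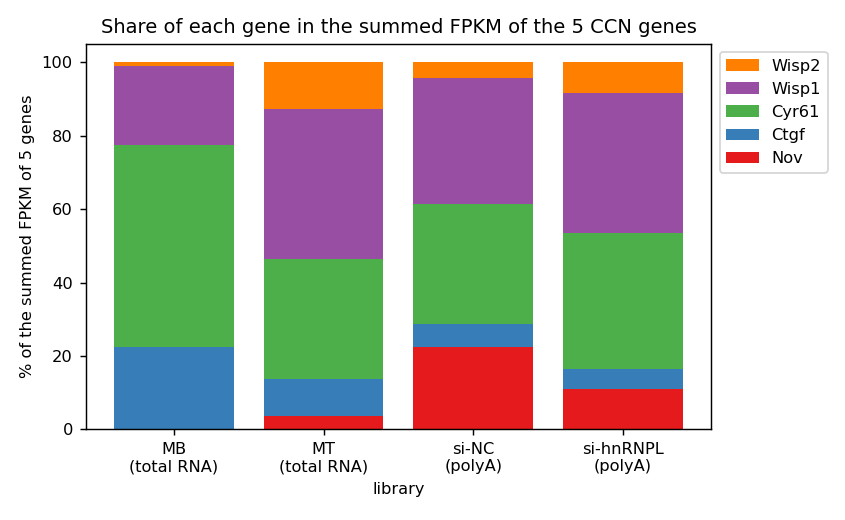
Share of each gene in the FPKM summed over the 5 CCN genes, as stacked bars that reach 100% in each library. Cyr61 and Ctgf fill most of the MB bar, and Wisp2 and Nov, barely visible there, take 12.7% and 3.54% in MT.

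To follow the family through differentiation, MT was set over MB as the log2 ratio of FPKM + 1. A gene was called when this log2 change was at least 0.58 in size. This corresponds to the fold of 1.5 in the study's methods, which name no added FPKM. With 1 FPKM added, a gene of low level needs a larger fold to be called. Of the 5 genes, 2 rose (Nov and Wisp2), 2 fell (Ctgf and Cyr61) and Wisp1 was not called. Over the 11816 named entries with at least 1 FPKM in either library, 15.4% rose and 28.6% fell by the same measure, with a median log2 change of -0.20. Since the members were selected on these changes, nothing is read from their count against these shares. A lower level in bulk RNA can come from fewer expressing cells or from less RNA per cell, and these cannot be told apart here. Medium, serum, time and cell state all differ between MB and MT and cannot be told apart either.

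Ctgf and Cyr61, the members known as YAP/TAZ-TEAD and serum targets, fell together. Ctgf dropped from 63.5 to 21.2 FPKM, a level 3.0-fold lower in MT, with a log2 change of -1.54 (interval -1.59 to -1.49). Cyr61 dropped from 156 to 69.3 FPKM, 2.26-fold lower, with a log2 change of -1.16 (-1.19 to -1.13). Both remained well expressed in MT, where Cyr61 was still above 96.7% of named entries and Ctgf above 86.6%. The proliferation markers fell over the same step, and their part in the decrease of Ctgf and Cyr61 was not tested.

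Nov and Wisp2 moved the other way. Wisp2, the member without the cystine knot, rose from 2.96 to 26.7 FPKM, a ratio of 9.04 (8.13 to 10.0) and a log2 change of 2.81 (2.69 to 2.93). Nov, which is known to bind Notch1, rose from 0.274 to 7.46 FPKM, a ratio of 27.3 (20.4 to 36.3). Because 1 FPKM was added to both libraries, the log2 change of Nov was only 2.73 (2.62 to 2.84), against 4.34 when 0.1 FPKM was added and 4.72 with 0.01. Of the 11816 entries, 147 had a higher log2 change than Wisp2 and 155 a higher one than Nov.

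Wisp1, first described as a target of Wnt-1 signalling, was 1.41-fold higher in MT, from 60.9 to 86.0 FPKM, with a log2 change of 0.49 (0.47 to 0.51) and intervals that did not overlap. This lies just under the threshold and depends on scaling. Relative to the median of entries with at least 1 FPKM in both libraries, which was -0.23, the log2 change of Wisp1 was 0.72, and it was 0.77 after upper-quartile scaling and 0.86 after rescaling each library to the same sum without small RNA genes, all of which would call it higher. The other 4 genes kept their direction and their call under these scalings, with Cyr61 closest to the threshold at -0.79 in the last of them.

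**Figure D3:**
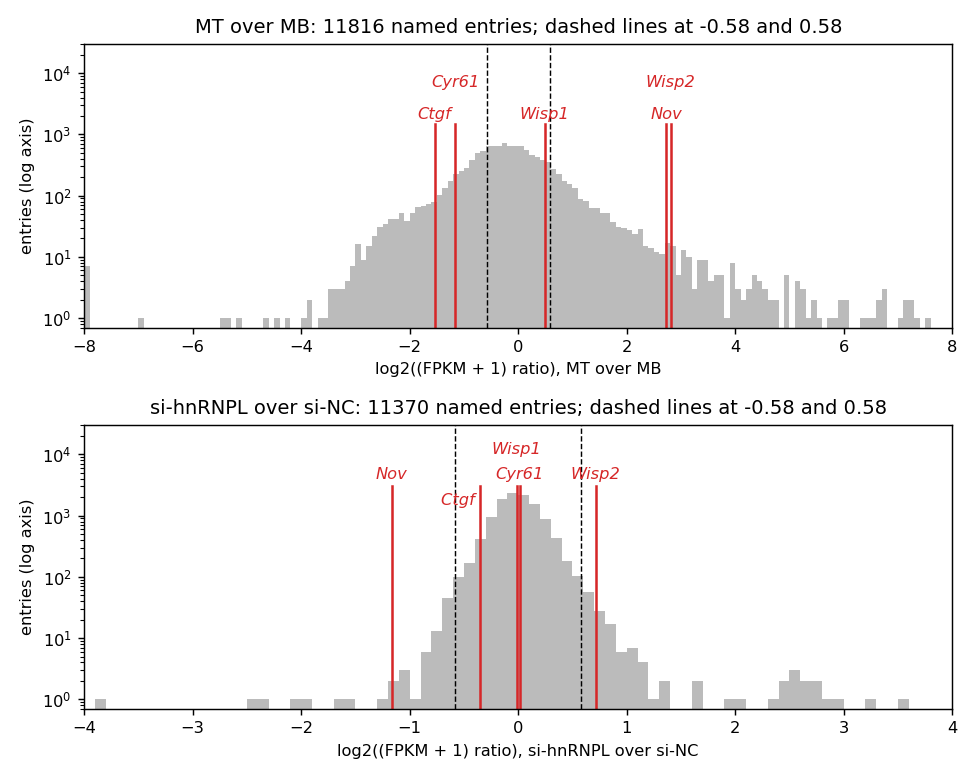
Histograms of the log2((FPKM + 1) ratio) over all named entries with at least 1 FPKM in either library of a comparison, counts on a log axis, with the 5 CCN genes as red lines and the threshold as dashed lines. In the upper panel (MT over MB) Ctgf and Cyr61 lie to the left and Nov and Wisp2 near 2.8 on the right. In the lower panel (si-hnRNPL over si-NC) Nov lies far left at -1.17, and 2 entries of the upper and 10 of the lower panel fall beyond the axis.

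For Cyr61, a known TEAD target that fell, the 250 bases before its start are shown, read from the mm9 genome 5′ to 3′ on the strand of the gene. The window is chr3:145312950-145313199 on the minus strand, before the gene at chr3:145309935-145312949. Capitals mark the letters GGAATG or their reverse complement CATTCC, the core bound by TEAD factors, and the TATA box TATAAA.
Cyr61: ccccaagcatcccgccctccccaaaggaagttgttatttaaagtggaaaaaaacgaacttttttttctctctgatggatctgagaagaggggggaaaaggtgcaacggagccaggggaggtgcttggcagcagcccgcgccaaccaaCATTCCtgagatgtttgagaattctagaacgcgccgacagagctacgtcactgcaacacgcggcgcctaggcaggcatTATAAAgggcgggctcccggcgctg
The TEAD letters, searched on both strands, occurred 1 time before Cyr61, beginning 103 bases before the start. They did not occur in the same window of Wisp2. Of 18976 promoters of this length, 11.2% held them at least once. TATAAA, which Cyr61 held and Wisp2 did not, was found in 11.7% of promoters. The E-box letters CAGCTG (12.2%), which match a site preferred by MyoD, the AP-1 letters TGANTCA (5.90% of promoters), the cAMP response element TGACGTCA (2.17%), the Smad palindrome GTCTAGAC (0.190%) and the CArG box of SRF (1.29%) occurred in neither window. The windows before the loci of Nov and Wisp1 were searched too, but they overlap an annotated transcript and are not printed. That of Nov held CAGCTG and TATAAA 1 time each, and that of Wisp1 held none of the letters searched. A match is a description of letters and not of binding.

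The pathways tied to the family were described over 7 lists of genes, 80 in all, of which 69 passed the filter of 1 FPKM in this comparison. Among these, 13 rose and 18 fell from MB to MT. After centring on the median of entries with at least 1 FPKM in both libraries, 18 rose and 12 fell. With this centring the shares over all entries moved to 22.8% up and 18.7% down. The split over all lists together therefore turns with the scaling, and counts after centring are given below for the lists whose split it changed.

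Of the 15 YAP/TAZ, TEAD and Hippo kinase genes, 2 rose and 1 fell, with a median log2 change of -0.13, and 3 rose and 0 fell after centring. Yap1, the coactivator itself, went from 24.4 to 19.7 FPKM and was not called, while Wwtr1 (TAZ) rose from 32.8 to 53.1 FPKM and Tead4 from 7.8 to 13.2. Tead2 fell from 29.7 to 18.5 FPKM, a call that centring ended (-0.43). Of the 20 other YAP/TAZ targets that passed the filter, out of 21, 5 rose and 7 fell, with a median of -0.30, and 7 rose and 5 fell after centring. Axl, a receptor tyrosine kinase, fell from 113 to 51.8 FPKM, Nuak2 from 11.5 to 3.55 and Ajuba from 34.2 to 12.7, as Ctgf and Cyr61 did. Ankrd1, often used as a YAP target beside Ctgf and Cyr61 and itself a muscle gene, stood at 229 FPKM in MB and 243 in MT, and Gadd45a, a stress gene, rose from 7.88 to 75.4. The list thus held genes that moved as Ctgf and Cyr61 did and genes that moved against them.

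Of the 3 SRF and MRTF factors, which also drive serum-induced transcription, 2 fell and 0 rose. Srf fell from 28.1 to 14.2 FPKM and Mkl1 (MRTF-A) from 16.8 to 7.57. Mkl2 stood at 7.18 FPKM in MB and 7.12 in MT and was not called. Among 9 TGF-beta pathway genes 4 rose and 1 fell, and 5 rose and 1 fell after centring. The receptors Tgfbr1, Tgfbr2 and Tgfbr3 and the transducer Smad3 rose by log2 changes between 0.70 and 0.83. Of these, Tgfbr3 was near the filter, at 0.383 FPKM in MB and 1.46 in MT. In contrast, Smad7, an inhibitor that the pathway induces, fell from 12.4 to 3.17 FPKM. Of 11 Wnt feedback targets only 5 passed the filter, of which 2 fell (Tcf7 and Apcdd1) and 0 rose, and the call of Tcf7 ended after centring (-0.37). Axin2, the usual readout of Wnt signalling, stayed at 0.253 FPKM in MB and 0.366 in MT.

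The receptors of CCN proteins were expressed in both states. Of 10 genes, 1 rose and 3 fell, and after centring 2 rose and 1 fell. The common integrin subunit Itgb1 stood at 153 FPKM in MB and 141 in MT. Itgb5 rose from 34.6 to 72.3 FPKM, whereas its alternative partner of alpha V, Itgb3, fell from 8.58 to 4.55, and the alpha subunits Itga5 and Itga6 fell from 37.1 to 23.1 and from 21.9 to 11.3. Centring ended the calls of Itgb3 (-0.56) and Itga5 (-0.43), and called the co-receptor Lrp6 higher (0.75). Among 7 other matricellular genes that passed the filter, of 11, 1 rose and 2 fell. Postn (periostin) rose from 3.55 to 91.7 FPKM, and Tnc (tenascin C) fell from 73.0 to 10.8, as did Thbs3 from 6.01 to 2.33. The other 4, Thbs1, Thbs2, Spp1 and Sparc, were not called.

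To describe the family under hnRNPL depletion, si-hnRNPL was set over si-NC in the same way. The siRNA used for RNA-seq has the guide strand below, printed 5′ to 3′ with its seed, bases 2 to 8, in capitals.
si-hnRNPL guide: aUGGUAAAcagaagcacgc
In control cells the Hnrnpl mRNA stood at 95.1 FPKM (92.7 to 97.5) and with si-hnRNPL at 85.9 (83.1 to 88.7). That is 90.4% of control, so the mRNA gave little check of the label. The study looked at the knockdown of the protein by Western blot, also after 48 h in differentiation medium. The seed match TTTACCA occurred in none of the 5 CCN mRNAs, and 20.5% of the 10019 mRNAs searched held it.

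Of the 5 genes, 1 fell (Nov), 1 rose (Wisp2) and 3 were not called. Over the 11370 entries that passed the filter, 0.888% fell and 1.44% rose by 0.58 or more, with a median of -0.01 and an SD of 0.31 on the log2 scale. These changes also chose the members, so the counts are not read against those shares. Nov dropped from 69.9 to 30.6 FPKM, to 43.8% of control, with a log2 change of -1.17 (-1.25 to -1.08), and only 13 of the 11370 entries had a lower one. Wisp2 rose from 13.6 to 22.9 FPKM, a ratio of 1.69 (1.52 to 1.87) and a log2 change of 0.72 (0.58 to 0.85), with 84 entries above it. The lower bound of this interval lies just under the threshold. Ctgf stood at 77.2% of control, with a log2 change of -0.35 (-0.47 to -0.23) and intervals that did not overlap, but was not called. Cyr61 and Wisp1 had overlapping intervals, with ratios of 1.01 (0.970 to 1.05) and 0.991 (0.967 to 1.01).

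Nov and Wisp2 therefore rose together from MB to MT and went in opposite directions with si-hnRNPL. The markers of differentiation also differed between the polyA libraries. All 5 myotube markers were higher in si-hnRNPL, of which Ckm and Acta1 passed the threshold, and their sum was 1784 FPKM in the control and 2598 with si-hnRNPL. Of the proliferation markers Mki67 and Top2a fell, and their sum was 128 and 89.5 FPKM. The part of these differences in the changes of Nov and Wisp2 was not tested. The median log2 change of genes of like length, 502 and 501 in number, was -0.01 for Nov and 0.08 for Wisp2, and that of genes of like GC content -0.09 and 0.08. The Nov mRNA held 5.93 CAAA and 4.88 CACA letters per kb, against medians of 4.59 and 4.85 over 10019 genes. The Wisp2 mRNA held 4.07 and 4.65, and the Ctgf mRNA, which was not called, held 5.83 and 5.41. These are counts of single short words in the spliced mRNA, not of the longer CA-rich stretches that hnRNPL is known to bind. Introns were not searched.

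In the related lists, 1 of the 68 genes that passed the filter rose with si-hnRNPL and 1 fell, against the 1.44% and 0.888% of all entries given above. F3 (tissue factor), in the YAP/TAZ list, rose from 31.8 to 48.9 FPKM, and Tnc fell from 46.9 to 30.5 FPKM. Notch1, a receptor that Nov binds, stood at 5.53 FPKM in control cells and 4.40 in si-hnRNPL, and Yap1 at 37.7 and 34.4, neither of which was called.

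**Figure D4:**
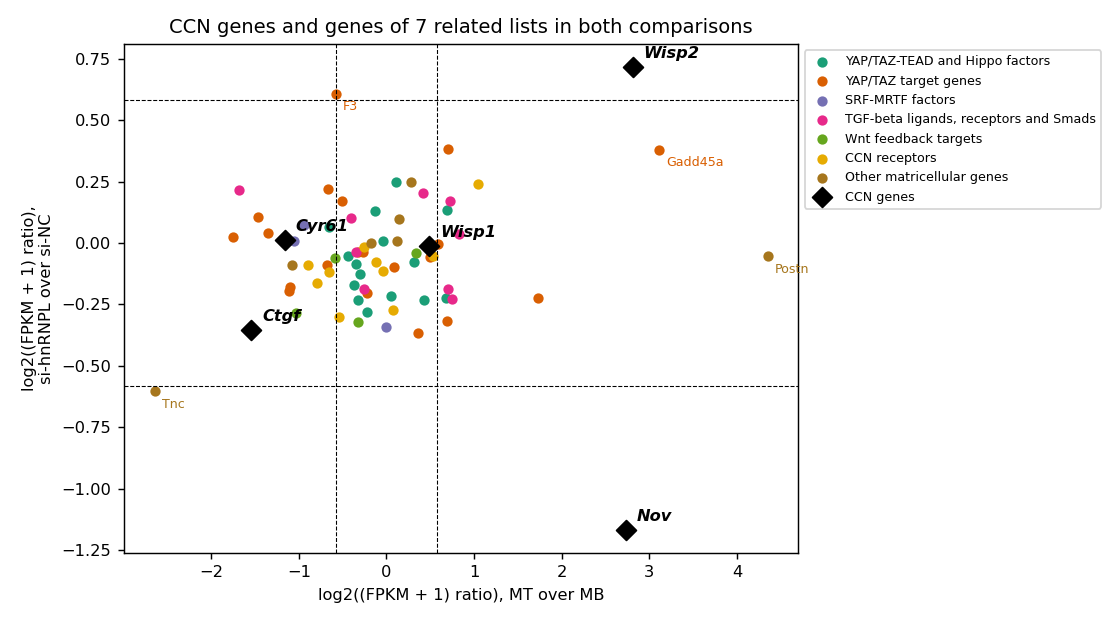
Log2((FPKM + 1) ratio) of MT over MB against that of si-hnRNPL over si-NC for the 68 genes of the related lists tested in both comparisons and for the 5 CCN genes (black diamonds), with dashed lines at the threshold. Postn and Gadd45a lie far out along the horizontal axis and within the threshold on the vertical one, and Nov stands alone at lower right.

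The total RNA-seq tables also hold unnamed transcript units that were assembled from the reads, and units within 50 kb of each gene were examined as a further readout of its locus. Over all 34342 units above 0 FPKM in MB the median ratio of MT over MB was 2.08, 77.8% were higher in MT, and 38.2% were higher with intervals that did not overlap, so a higher unit in MT is the background. Wisp1, whose locus spans chr15:66722955-66754761, held 4 intronic units, at 2.76 to 4.49 FPKM in MB and 7.95 to 10.8 in MT, with ratios from 2.34 to 2.89 and intervals apart in all 4. A further unit that overlapped an exon had a ratio of 2.94. Upstream of Wisp1, between 2099 and 33038 bp from its start, lay 18 units at 0.111 to 0.899 FPKM in MB, of which 16 were higher in MT, 13 of them with intervals apart, at a median ratio of 2.91. The named Wisp1 gene itself was 1.41-fold higher. The tables give no strand for these units.

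Wisp2, at chr2:163646570-163658883, held 2 intronic units, which went from 0.199 to 4.19 FPKM and from 0.0747 to 5.12 FPKM. Their MB values rest on about 3.0 and 1.0 fragments, so no fold is given. Upstream of Wisp2 lay 2 units with ratios of 0.432 and 1.02 and overlapping intervals, and downstream 1 unit with a ratio of 4.29 that rests on about 4.0 fragments in MB. Around Cyr61, 5 upstream units had a median ratio of 1.09, below the median of all units, while the gene fell. Of these units 3 were higher in MT, 2 of them with intervals apart, and 0 were lower with intervals apart. Downstream of Cyr61 lay 1 unit with a ratio of 2.38 and overlapping intervals, on about 4.0 fragments in MB. No assembled unit lay within 50 kb of Nov (chr15:54577483-54585316) or Ctgf.

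Lastly, the genes next to each member were examined. Ctgf and Enpp1, whose locus lies 39232 bp downstream, went in opposite directions from MB to MT, as Enpp1 rose from 3.24 to 13.9 FPKM. Ddah1, 108707 bp upstream of Cyr61, fell with it, from 25.7 to 6.46 FPKM. Ada, upstream of Wisp2, fell from 10.2 to 1.96 FPKM while Wisp2 rose. Mal2, upstream of Nov, was listed at 0 in all 4 libraries, and Ndrg1, 6119 bp downstream of Wisp1, stood at 32.9 FPKM in MB and 35.3 in MT. Tg, 40673 bp upstream of Wisp1, rose from 2.39 to 5.16 FPKM, a log2 change of 0.86. None of these neighbours was called with si-hnRNPL.

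The level of Nov differed most between the library kinds. It was 9.37-fold higher in si-NC than in MT, against a median ratio of 1.19 over 9837 entries, 99.8% of which had a lower ratio than Nov. The ratio was 0.941 for Ctgf, 1.47 for Cyr61, 1.25 for Wisp1 and 0.508 for Wisp2. RNA selection, transfection and time in differentiation medium differ between these libraries and cannot be told apart.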

How the data were processed

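The data were 1 total RNA library each of MB and MT and 1 polyA library each of si-NC and si-hnRNPL cells. The authors mapped reads to mm9 with TopHat2 and estimated abundance with Cufflinks, and the deposited tables hold FPKM (fragments per length of transcript and per number of mapped fragments) with a 95% interval and a locus. Counts were not used. From these, log2((FPKM + 1) ratio) was computed for MT over MB and si-hnRNPL over si-NC within each pair of tables, on entries with at least 1 FPKM in either library, and called at 0.58 in size. Intervals of ratios combine those of both libraries. Interval widths, taken as counting error alone, gave the implied fragments. FPKM depends on the gene model and on a few abundant small RNAs in the total RNA libraries, so other scalings were tried. Promoters, mRNAs and genes came from the mm9 genome and GENCODE annotation of that build. The calculations were tested on simulated data with Python 3.11.15, numpy 2.4.6 and pandas 2.3.3. The simulation used better expressed entries only, so the low levels of Nov and Wisp2 in MB lie outside it. Genes named were the members, Wisp3, Hnrnpl, genes of the lists, nearest neighbours, and per member the 3 entries closest in both log2 changes with at least 1 FPKM in every library. The members and lists were chosen with earlier results of these data known. 1 gene of the lists and 1 promoter window are not reported here.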

Additional observations from a re-analysis of the deposited data

How the results depend on the processing

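With 1 library per condition, replicate spread is unknown and no library could be left out. No paired analysis was possible because each condition has 1 library. Of 50 recomputed log2 changes of the members, no called change reversed, 28 moved by less than the interval and 22 by more. In si-hnRNPL over si-NC the uncalled changes of Cyr61 (0.01 to -0.09, rescaled without small RNA genes) and Wisp1 (-0.01 to 0.01, upper-quartile scaling) changed sign. A threshold of 1 on the log2 scale left 14 list genes called in MT over MB in place of 31, and in si-hnRNPL over si-NC 1 member (Nov) in place of 2 and 0 list genes in place of 2. Without a filter on FPKM, the share of all entries called was 21.5% in place of 44.0% for MT over MB and 1.10% in place of 2.33% for si-hnRNPL over si-NC, and with 0.1 FPKM added the latter was 4.34%. Of the 15 genes closest to a member in both log2 changes, 9 were found again with at least 5 FPKM required in all 4 libraries and 3 with 0.1 FPKM added.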

Other observations

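Genes that moved most like each member in both comparisons were listed by the distance between the pairs of log2 changes, over 9368 entries with at least 1 FPKM in every library. Nov itself is below this in MB, so the search was repeated, after the data were seen, over 9986 entries with at least 1 FPKM in either library of each comparison. In both searches 0 entries lay within 0.5 of Nov, and the nearest was Ly6c2 at 0.57, which rose from 3.01 FPKM in MB to 25.5 in MT and stood at 70.9 in si-NC and 46.5 in si-hnRNPL. Rcan2, an inhibitor of calcineurin, was next at 0.60, and Ly6c1 followed at 0.69. These distances use FPKM + 1, with which the log2 change of Nov from MB to MT was 2.73, against 4.34 with 0.1 FPKM added. Distances from Nov therefore depend on the FPKM added. Ly6c1 and Ly6c2 are close paralogs, so the split of reads between them is uncertain. In the first search 20 entries lay within 0.5 of Wisp2, and 34 in the wider one, with Pik3ip1, an inhibitor of PI3-kinase, nearest at 0.06. Ogn, a small matrix proteoglycan at 0.20 from Wisp2, rose from 58.1 to 416 FPKM from MB to MT and stood at 195 in si-NC and 278 in si-hnRNPL.

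Ctgf had 591 entries within 0.5, of which Slbp, the histone stem-loop binding protein, and Pold3, a DNA polymerase subunit, were nearest. Slbp fell from 51.7 to 17.1 FPKM from MB to MT. Cyr61 had 1734 such entries and Wisp1 2665. Tnfrsf12a, the receptor of TWEAK, was among the 3 nearest to Cyr61 and fell from 230 to 102 FPKM. These counts depend on how crowded the region of small changes is, and the nearest genes are a description of 4 libraries.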
